A study of Mus musculus with 12 samples.

Results

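Mouse C3H/10T1/2 cells that had received a plasmid for bone morphogenetic protein 2 (BMP2) together with the microRNA miR-148b were compared with cells that had received the BMP2 plasmid alone. The comparison is between 6 of the 12 libraries of the series, chosen by their titles: 3 of the hybrid plasmid (BMP2ADV148b) and 3 of the reference plasmid (BMP2ADV). All genes of the files were used, 47643 in number, of which 13229 had enough counts to be tested. The line is of embryonic origin and fibroblast morphology, the labels also give sarcoma as its disease, and it can form cartilage, bone or fat cells when induced. Cells of both groups were transfected transiently, without a virus, with 0.5 µg of plasmid DNA per square centimetre and the polymer TurboFect, and total RNA was taken 3 days later. The other 6 libraries came from the hybrid plasmids BMP2ADV20a and BMP2ADV590, handled in the same way. They show where BMP2ADV148b stands among the groups. They also entered the fit of all 12 libraries that gave the p-values, so the calls depend on them too. Every group carried a BMP2 plasmid and polymer, and no untransfected or mock group was analysed here, so neither the effect of BMP2 nor that of transfection can be read from these data. Separate cultures for the 3 libraries of a group are not stated in the labels, so p-values measure only the spread between these libraries.

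A microRNA is cut from a hairpin transcript and loaded into an Argonaute protein, which it guides to messenger RNAs through its seed, bases 2 to 8 counted from its 5′ end. Messengers with a complementary stretch in the 3′ untranslated region (UTR) are usually translated less and decay somewhat faster, so that many targets shift by a small amount rather than a few by a large one. miR-148b belongs to the miR-148 and miR-152 family, whose known targets in mammals include DNA methyltransferases and regulators of growth. BMP2 is a secreted growth factor that drives precursor cells towards bone and cartilage, and the series asks whether hybrid vectors of this kind could serve bone regeneration.

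The mature sequences below, from RefSeq on GRCm38.p6, show what the family shares, with the seed in capitals. The hairpin of Mir148b follows them (chr15:103285125-103285221, plus strand), since its locus is where reads of the plasmid's microRNA could be counted, and there the capitals mark the mature miR-148b-3p.
mmu-miR-148b-3p: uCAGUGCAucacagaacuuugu
mmu-miR-148a-3p: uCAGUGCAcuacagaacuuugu
mmu-miR-152-3p: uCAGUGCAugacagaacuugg
Mir148b hairpin: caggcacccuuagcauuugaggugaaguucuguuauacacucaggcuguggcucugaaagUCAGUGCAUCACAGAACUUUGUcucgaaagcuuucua
The mature sequences lie at chr15:103285185-103285206 (plus strand), chr6:51269829-51269850 (minus) and chr11:96850439-96850459 (plus). All 3 carry the same seed, so a match to it is a match to each of them. The reverse complement of the seed in DNA letters, TGCACTG, is called the 7-mer here, and the same stretch followed by an A, TGCACTGA, the 8-mer, which is the stronger kind of site in general.

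The BMP2ADV148b libraries held 9236431 to 9750598 gene counts and the BMP2ADV libraries 9773102 to 13126601, so the hybrid libraries were the shallower ones, and the part of depth in the results was not tested. Of the counts, Gm42418, whose gene model covers ribosomal RNA, held 4.07% to 7.41% in BMP2ADV148b and 5.79% to 10.0% in BMP2ADV. On the first principal component of all 12 libraries, with 18% of the variance, the BMP2ADV148b libraries lay at -21.5, -11.5 and 3.83 and the BMP2ADV libraries at -7.66, -15.2 and -25.3, so the groups overlapped there. Fibroblast markers were abundant, with a summed level of 20440 to 21940 counts-per-million (CPM) against 21210 to 22480. Of 9 macrophage markers, Adgre1 and Tyrobp had 0 counts in all 12 libraries, and the list summed to 9.04 to 11.0 CPM in BMP2ADV148b and 6.70 to 6.95 in BMP2ADV. Of 7 markers of T, B and NK cells, 6 had 0 counts in all 12 libraries. In bulk RNA, fewer cells of a kind and less RNA per cell cannot be told apart.

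Reads at the locus of the microRNA were counted only in libraries of its plasmid. Mir148b (ENSMUSG00000065560, chromosome 15), which lies within the span of the gene Copz1, was counted 211, 215 and 204 times with the hybrid plasmid and 0 times in each of the other 9 libraries. The level was at least 248-fold higher than in BMP2ADV, taking 3 counts over the BMP2ADV group as the limit that a count of 0 allows. The library is primed on poly(A), which a mature microRNA lacks, so the level of miR-148b-3p itself was not measured. Mir148a and Mir152, the genes of the other family members, had 0 counts in all 12 libraries. Copz1, a gene of the coat of transport vesicles, stood at 231 ± 2.90 CPM against 212 ± 1.09 (SD, n = 3), a log2 fold change of 0.12 that did not pass the test (SE 0.0859, adjusted p = 0.749). Copz2, the host gene of Mir152, stood at 52.2 ± 9.37 CPM against 53.6 ± 6.80 (log2 fold change -0.04, adjusted p = 0.96).

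Bmp2 itself (ENSMUSG00000027358, chromosome 2) was scarce, at 1.77, 1.39 and 0.733 CPM in BMP2ADV and 3.38, 8.27 and 4.42 in BMP2ADV148b. The groups did not overlap, and Bmp2 rose by a log2 fold change of 2.00 (SE 0.383, 95% interval 1.21 to 2.79, adjusted p = 0.0326). Its mean was 3.40 CPM in BMP2ADV20a and 5.05 in BMP2ADV590, and the direct differences of BMP2ADV148b from these groups were 0.65 (adjusted p = 0.692) and 0.09 (adjusted p = 0.937). Since neither the origin of the plasmid's BMP2 sequence nor its 3′ end is described in the labels, plasmid and chromosomal transcripts cannot be told apart. The call failed (adjusted p up to 0.212) when any BMP2ADV library, or BMP2ADV148b replicate 2 or 3, was left out, and it was lost with limma-voom (adjusted p = 0.106).

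Of the 13229 genes tested, 33 (0.249%) passed an adjusted p of 0.05: 28 (0.212%) were higher and 5 (0.0378%) lower in BMP2ADV148b. In all 33 the libraries of the groups did not overlap, where 7.36% of all tested genes were separate on the higher side and 7.37% on the lower side. The calls were made on these same libraries, so the separation is no further support for them. Apart from Mir148b and Bmp2, the largest called difference was 0.85 on the log2 scale, so the calls are of modest size. The transcriptome as a whole was balanced, with 49.9% of genes above 0, a median of -0.00 and quartiles of -0.13 and 0.13. At an unadjusted p under 0.05 there were 575 genes higher (4.35%) and 540 lower (4.08%). The number of calls leaned on single libraries: leaving out BMP2ADV replicate 1, 2 or 3 gave 6, 12 or 3, leaving out BMP2ADV148b replicate 1, 2 or 3 gave 20, 4 or 5, the same for BMP2ADV20a gave 13, 20 or 17, and for BMP2ADV590 45, 60 or 16. With limma-voom 24 of the 33 were called, and Bmp2, Mmp11, Agpat2, Rgs2, Cdsn, Cxcl10, Vegfa, Psmb10 and H2-D1 were not (adjusted p from 0.0524 to 0.106). With DESeq2 31 of them were, and H2-K1 (0.0617) and Cxcl10 (0.0943) were not. Of the 32 called genes with an established name, Mir148b and Ly6e were the 2 that kept the call whichever of the 12 libraries was left out.

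**Figure D1:**
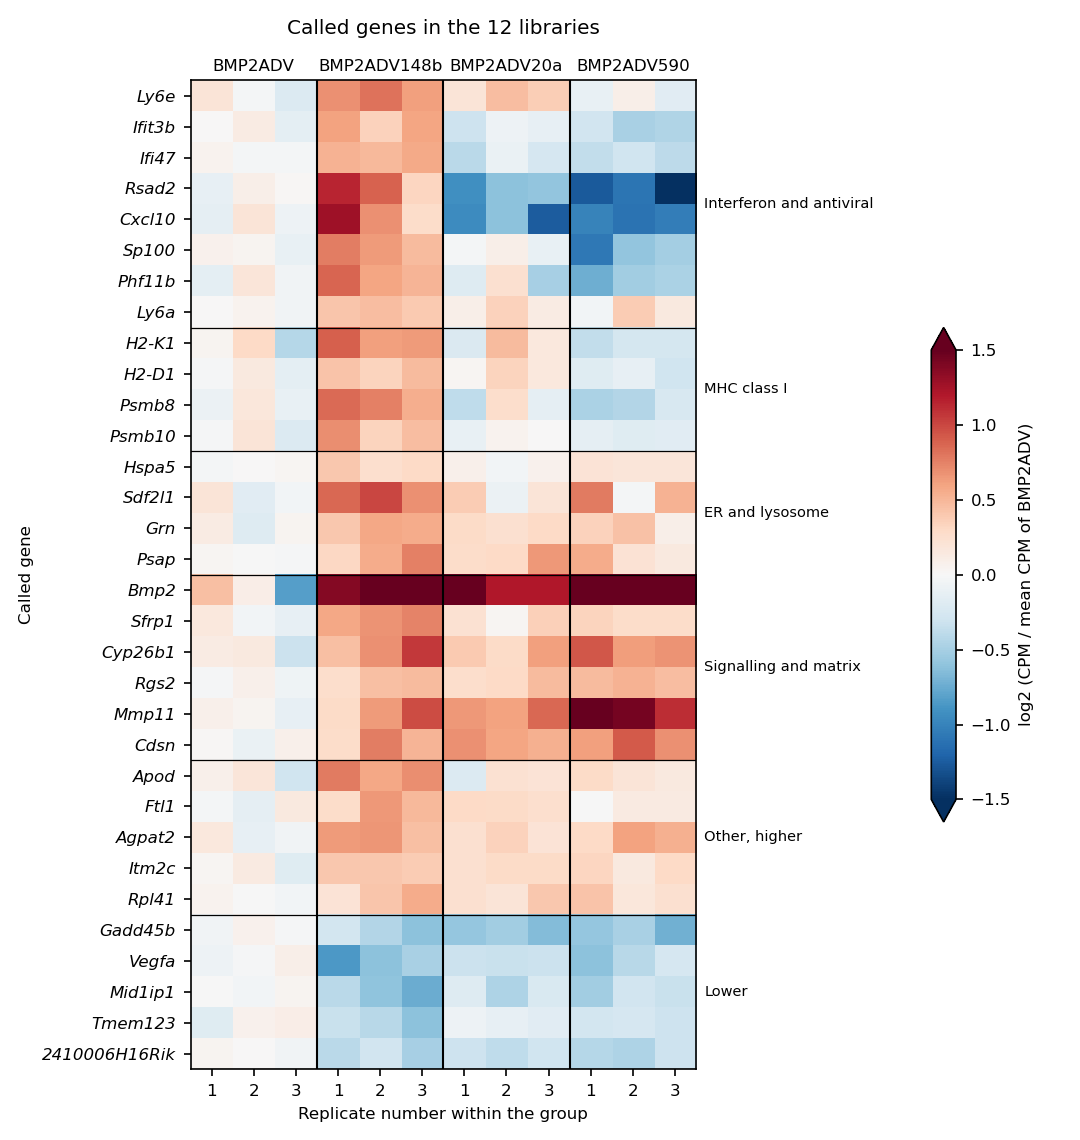
Each row is a called gene other than Mir148b and each column a library, and the colour is the log2 ratio of its CPM to the mean of the 3 BMP2ADV libraries, cut at 1.5 in either direction. Rsad2 and Cxcl10 are red in the BMP2ADV148b columns and blue in the columns of the other hybrids, whereas Bmp2, Cyp26b1, Mmp11 and Cdsn are red in all 3 hybrid groups.

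Among the calls were 8 genes known to be induced by interferon, of which 4 (Ly6e, Rsad2, Ifit3b and Cxcl10) belong to the interferon list and the other 4 (Ifi47, Sp100, Phf11b and Ly6a) were grouped with them after their values were seen. Ly6e (ENSMUSG00000022587, chromosome 15), which encodes an interferon-induced membrane protein that hinders the entry of several viruses, stood at 195, 167 and 148.05 CPM in BMP2ADV and at 273, 299 and 260 in BMP2ADV148b. Every hybrid library lay above every reference library, and Ly6e rose by 0.70 on the log2 scale (SE 0.0994, adjusted p = 0.00188). Rsad2 (ENSMUSG00000020641, chromosome 12), whose product viperin makes a chain-terminating nucleotide against viral polymerases, stood at 48.8, 56.4 and 53.8 CPM against 117, 97.8 and 66.4. The hybrid libraries spread widely, and the lowest was still above the reference, with a rise of 0.82 (SE 0.149, adjusted p = 0.0178). Cxcl10 (chromosome 5), the gene of a chemokine that draws T cells, stood at 45.0, 56.7 and 47.0 CPM against 119, 79.5 and 60.3. It rose by 0.80 (SE 0.172, adjusted p = 0.0465), again with BMP2ADV148b replicate 1 highest and replicate 3 lowest. Leaving out any BMP2ADV library, or BMP2ADV148b replicate 1 or 2, took Rsad2 past the threshold (adjusted p up to 0.139), and the same held for Cxcl10 with 9 of the 12 libraries (up to 0.278).

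Ifi47 (ENSMUSG00000078920, chromosome 11), an interferon-inducible GTPase gene, had close values within each group, 60.0, 56.4 and 56.4 CPM in BMP2ADV and 82.9, 80.7 and 85.2 in BMP2ADV148b. It rose by 0.53 (SE 0.0948, adjusted p = 0.0178). Ifit3b (chromosome 19), of the family of proteins that bind foreign RNA, went from 161 ± 15.1 to 230.03 ± 22.8 CPM (0.52, adjusted p = 0.0178). It is a close copy of Ifit3, so how reads were split between them is uncertain. Sp100 (chromosome 1), a component of nuclear bodies that restrict viral DNA, rose by 0.63 and Phf11b (chromosome 14), an interferon-induced PHD finger gene, by 0.67 (adjusted p = 0.0391 and 0.0419). Ly6a, the stem cell antigen Sca-1, which interferon also induces, was abundant and rose from 1225 ± 46.0 to 1642 ± 38.9 CPM (0.42, adjusted p = 0.0419). Each of these 8 genes had all 3 BMP2ADV148b libraries above all 9 others, as did 1.15% of all tested genes. A place above the BMP2ADV libraries came with the call, so that share is not a like background. Leaving out 1 library lost the call of Ifit3b for 4 of the 12, of Ifi47 for 5, of Sp100 for 7, of Phf11b for 8 and of Ly6a for 9, with adjusted p up to 0.187, 0.163, 0.245, 0.245 and 0.262.

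Among the 46 genes listed as the interferon response, all of which were tested, 4 rose and 0 fell, against 0.212% of all tested genes that rose. The 4 are Ly6e, Ifit3b, Rsad2 and Cxcl10. Most of the others lay on the same side without passing: the median of the list was 0.28 (quartiles 0.17 and 0.47), 42 of 46 were above 0, and 26 were higher and 1 lower at an unadjusted p under 0.05, where all genes gave 4.35% and 4.08%. The 4 genes below 0, picked after their values were seen, were Ifi27 (-0.34), Mx2 (-0.12), Ifit2 (-0.12) and Xaf1 (-0.01). In 17 of the 46 genes the BMP2ADV148b libraries were above all 9 others, beside 1.15% of all tested genes. This list and those below were chosen with earlier results of these data known, so their counts are not independent support. Leaving out BMP2ADV replicate 1, 2 or 3 left 1, 2 or 1 that rose, and leaving out BMP2ADV148b replicate 1, 2 or 3 left 1, 2 or 3. Leaving out BMP2ADV590 replicate 1 or 2 gave 8. The list of 9 macrophage markers also summed to more in BMP2ADV148b than in BMP2ADV. Its sums were a few CPM, against 8640 to 9497 CPM (BMP2ADV) and 10530 to 11600 CPM (BMP2ADV148b) for the interferon list. Of the 4 macrophage markers tested, 2 were above 0, and 0 were higher and 0 lower at an unadjusted p under 0.05. The part of these markers in the result was not tested.

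Set directly against the other hybrid plasmids, the interferon genes stood further apart. Against BMP2ADV20a, 19 of the 46 were called higher and 0 lower, with a median of 0.50, where 0.506% of all tested genes were called higher. Against BMP2ADV590, 38 were higher and 1 lower, with a median of 0.69, where 1.97% of all genes were higher and 2.46% lower. Rsad2 differed by 1.53 from BMP2ADV20a (adjusted p = 4.04e-06) and by 2.10 from BMP2ADV590 (1.44e-08), and Cxcl10 by 1.71 and 1.85 (4.7e-06 and 1.07e-06). The 3 comparisons share the BMP2ADV148b libraries and are not independent of each other. Levels of Cxcl10 were 25.9, 32.3 and 20.9 CPM in BMP2ADV20a and 24.8, 23.03 and 24.1 in BMP2ADV590, so BMP2ADV lay between these groups and BMP2ADV148b.

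**Figure D2:**
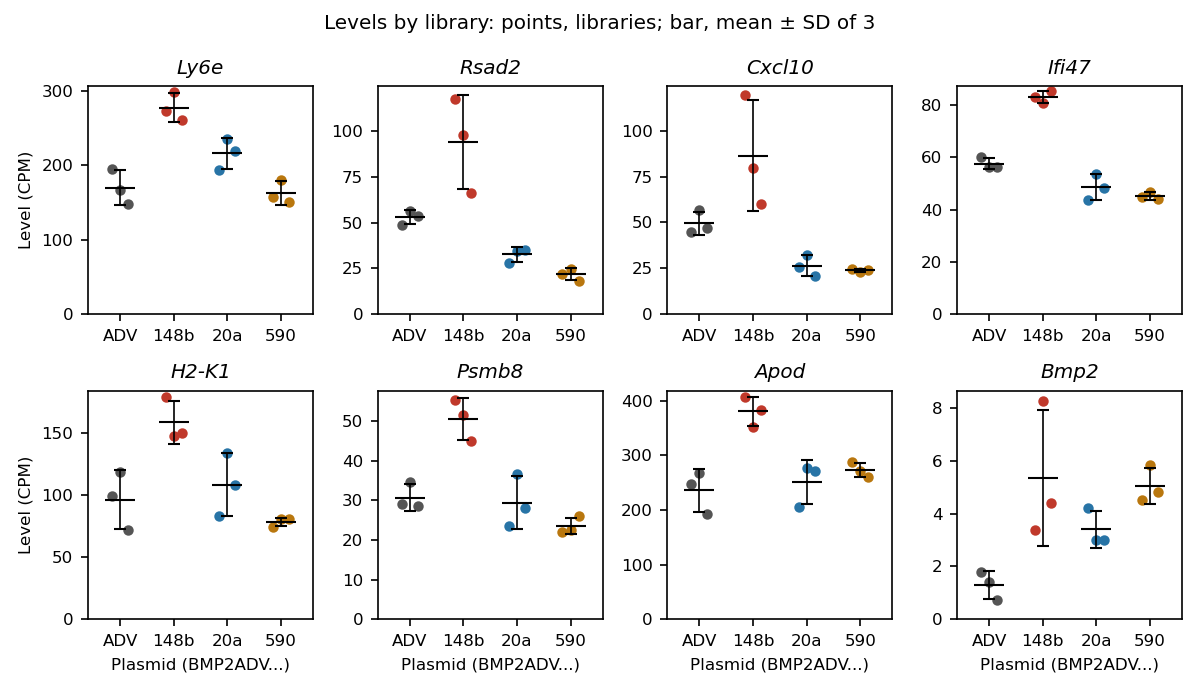
Each point is a library, placed by plasmid (ADV, BMP2ADV; the others by their microRNA), the vertical axis is the level in CPM from 0, and the bar is the mean ± SD of 3 libraries. Ly6e, Rsad2, Cxcl10, Ifi47, H2-K1, Psmb8 and Apod are highest in BMP2ADV148b, whereas the Bmp2 values of BMP2ADV148b overlap those of BMP2ADV590 and BMP2ADV20a.

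Sensors of foreign nucleic acid and the factors that switch on interferon showed smaller values. Of 31 such genes in the files, 25 were tested and 0 were called, with 7 higher and 0 lower at an unadjusted p under 0.05 (4.35% and 4.08% of all tested genes) and a median of 0.17. By edgeR none passed, by DESeq2 1 was higher and by limma-voom 0. Irf7, the transcription factor that amplifies the interferon response, stood at 157 ± 15.3 CPM against 114 ± 9.53 (0.46, SE 0.108, adjusted p = 0.0796). Tlr3, a receptor for double-stranded RNA, stood at 52.99 ± 1.77 CPM against 40.7 ± 1.73 (0.38, adjusted p = 0.217).

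Genes of MHC class I presentation, by which cells show peptides from within to T cells, rose as well. H2-K1 (ENSMUSG00000061232, chromosome 17), a class I heavy chain gene, stood at 99.2, 119 and 71.7 CPM in BMP2ADV and 179, 147.96 and 150.1 in BMP2ADV148b. The reference libraries spread more than the hybrid ones and the groups were separate, with a rise of 0.72 (SE 0.146, adjusted p = 0.0391). H2-D1, a further class I heavy chain gene, rose by 0.41 (adjusted p = 0.0495), from 181 ± 18.8 to 242 ± 12.6 CPM. The class I genes are near copies of each other, so how reads were split between them is uncertain. Psmb8 (chromosome 17), a catalytic subunit of the immunoproteasome that trims proteins into peptides, stood at 29.0, 34.7 and 28.5 CPM against 55.4, 51.7 and 44.9. No library of one group reached the other, and Psmb8 rose by 0.72 (SE 0.141, adjusted p = 0.0337). Psmb10 (chromosome 8), a further catalytic subunit, rose by 0.50 (adjusted p = 0.0491).

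Of the 21 tested genes of that list, 4 rose and 0 fell beside 0.212% and 0.0378% of all genes, and the median was 0.30. At an unadjusted p under 0.05, 11 were higher and 1 lower, where all tested genes gave 4.35% and 4.08%. The 1 gene on the lower side was Pdia3, a chaperone of the peptide-loading complex, at 513 ± 29.5 CPM against 629 ± 56.3 (-0.29, adjusted p = 0.185). Its 3 hybrid libraries were below all 9 others, and it passed the test against BMP2ADV20a (-0.39, adjusted p = 0.0192) and BMP2ADV590 (-0.39, adjusted p = 0.00531). The count of 4 depended on single libraries: leaving out any BMP2ADV148b library, or BMP2ADV replicate 1 or 3, gave 0. It was 5 without BMP2ADV replicate 2, 2 without BMP2ADV20a replicate 1 or 2, and 1 without BMP2ADV20a or BMP2ADV590 replicate 3. The adjusted p of its 4 called genes reached 0.229 (Psmb8) to 0.353 (H2-D1 and Psmb10) in these fits.

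Of the list for chaperones of the endoplasmic reticulum (ER) 2 genes rose, and they are given here beside Psap and Grn, which are in no list and were placed here after their values were seen. Hspa5 (ENSMUSG00000026864, chromosome 2), the main chaperone of the ER, stood at 1379, 1417 and 1442 CPM in BMP2ADV and 1875, 1683 and 1732 in BMP2ADV148b, a rise of 0.32 (SE 0.0672, adjusted p = 0.0425). Sdf2l1 (chromosome 16), which assists Hspa5, stood at 26.6, 20.6 and 22.5 CPM against 42.2, 46.4 and 37.3 and rose by 0.85 (SE 0.165, adjusted p = 0.0337). Both pairs of groups were separate, at quite different levels. Of 25 tested genes of ER chaperones and the unfolded protein response, these 2 rose and 0 fell, beside 0.212% and 0.0378% of all tested genes. At an unadjusted p under 0.05, 7 were higher and 1 lower, where all genes gave 4.35% and 4.08%, and the median was 0.18 with 21 genes above 0. By DESeq2 4 were higher. Psap, which encodes the precursor of the saposins that help lysosomes to break down sphingolipids, rose from 479 ± 7.94 to 702 ± 109 CPM (0.55, adjusted p = 0.0391). Grn (chromosome 11), the gene of progranulin, which is secreted and also acts in lysosomes, rose from 212 ± 23.6 to 302 ± 19.7 CPM (0.51, adjusted p = 0.0178). Without any 1 of the 6 libraries of the groups, Hspa5 and Sdf2l1 were not called, with adjusted p up to 0.187. Hspa5 lost its call for 10 of the 12 libraries in all, and Sdf2l1 for those 6 alone. For Grn the call needed replicates 2 and 3 of both groups (up to 0.133), and for Psap each of 7 libraries (up to 0.237).

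Single genes of the retinoic acid, Wnt and matrix remodelling lists rose, beside 0.212% of all tested genes. At an unadjusted p under 0.05, 2 of 11, 3 of 15 and 4 of 19 tested genes of these lists were higher and 0, 0 and 1 lower, where all genes gave 4.35% and 4.08%. Cyp26b1 (ENSMUSG00000063415, chromosome 6), the gene of an enzyme that degrades retinoic acid, stood at 227, 229.9 and 166 CPM in BMP2ADV and 282, 333 and 432 in BMP2ADV148b. It rose by 0.75 (SE 0.132, adjusted p = 0.0178), and it was the 1 call among 11 tested genes of the retinoic acid pathway, whose median was 0.01. Sfrp1 (chromosome 8), a secreted inhibitor of Wnt ligands, stood at 20.6, 17.98 and 17.1 CPM against 27.6, 29.6 and 31.02. It rose by 0.66 (SE 0.132, adjusted p = 0.0391) and was the 1 call among 15 tested genes of the Wnt list, whose median was -0.08. Mmp11 (chromosome 10), a matrix protease of the stromelysin group, stood at 45.5, 44.1 and 39.6 CPM against 52.7, 66.9 and 84.5 and rose by 0.66 (adjusted p = 0.0419). Its level was higher still in BMP2ADV590, at 126, 117 and 92.9 CPM, from which BMP2ADV148b differed by -0.72 (adjusted p = 0.00156). Rgs2, a brake on signalling by G proteins, and Cdsn, a cell adhesion protein gene best known from skin, are in no list and rose by 0.40 and 0.53 (adjusted p = 0.0438 and 0.0441). Cyp26b1 lost its call without BMP2ADV replicate 3 or BMP2ADV148b replicate 2 or 3 (adjusted p up to 0.187). Sfrp1 and Mmp11 lost it without any 1 of 8 libraries (up to 0.245 and 0.328), and Rgs2 and Cdsn without any 1 of 9 (up to 0.266 and 0.331).

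The remaining named genes that rose share no list. Apod (ENSMUSG00000022548, chromosome 16), the gene of a secreted lipid carrier, stood at 248, 268 and 192 CPM in BMP2ADV, 406, 353 and 383 in BMP2ADV148b, 206, 278 and 271 in BMP2ADV20a and 287, 271 and 261 in BMP2ADV590. The BMP2ADV148b libraries were thus apart from all others, and Apod rose by 0.69 (SE 0.11, adjusted p = 0.00915). Its direct differences were 0.60 from BMP2ADV20a (adjusted p = 0.00663) and 0.48 from BMP2ADV590 (adjusted p = 0.00994). The call against BMP2ADV was lost only without BMP2ADV replicate 3 (adjusted p = 0.109). Ftl1, the light chain of the iron store ferritin, rose by 0.48 (adjusted p = 0.0178), Agpat2, an enzyme of phospholipid and triglyceride synthesis, by 0.58 (0.0438), Itm2c, a membrane protein gene, by 0.39 (0.0419), and Rpl41, a ribosomal protein gene, by 0.39 (0.0499). Ftl1 and Rpl41 have many processed copies in the genome, so the split of their reads is uncertain. Ftl1 lost its call without any 1 of 4 libraries, Itm2c and Rpl41 of 9 and Agpat2 of 10, with adjusted p from 0.14 (Ftl1) up to 0.356 (Rpl41).

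Of the 5 genes that fell, 4 have an established name. Vegfa (ENSMUSG00000023951, chromosome 17), the vessel growth factor gene, stood at 26.4, 27.6 and 29.6 CPM in BMP2ADV and 15.4, 18.2 and 19.9 in BMP2ADV148b and fell by 0.64 on the log2 scale (SE 0.138, adjusted p = 0.0465). Mid1ip1, a regulator of fatty acid synthesis, stood at 45.0, 43.8 and 46.5 CPM against 34.2, 29.6 and 27.0 and fell by 0.57 (adjusted p = 0.0419). Both drops left the groups well apart. Tmem123 (chromosome 9), a membrane glycoprotein gene, fell by 0.45 (adjusted p = 0.0391). It was the 1 called gene that was below all 9 other libraries, at 111, 105 and 91.5 CPM, as were 0.786% of all tested genes. A place below the BMP2ADV libraries came with the call. Gadd45b (chromosome 10), a stress-induced gene that binds kinases of the p38 and JNK pathways, stood at 153, 166 and 157 CPM against 131, 117 and 104 and fell by 0.44 (adjusted p = 0.0419). It was also low in the other hybrid groups, at 101.2 to 110.4 CPM in BMP2ADV20a and 96.3 to 113 in BMP2ADV590. In the longest annotated 3′ UTR of Vegfa, Mid1ip1, Tmem123 and Gadd45b the 7-mer is absent. The unnamed model 2410006H16Rik fell by 0.39 (adjusted p = 0.0326). The number of genes that fell was 0 when replicate 2 or 3 of either group, or BMP2ADV20a replicate 1, was left out, and 1 when BMP2ADV replicate 1 or replicate 3 of either other hybrid was. Leaving out BMP2ADV20a replicate 2 gave 2, and leaving out BMP2ADV590 replicate 1 or 2 gave 11 or 17. The adjusted p of the 4 named genes then reached 0.266 at most.

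Several groups of genes had medians below 0 with few or no calls by edgeR, and DESeq2 and limma-voom likewise called 0 of the contractile, mitosis, NF-kB and immediate early genes. In the contractile list (actin, tropomyosin and other genes of the fibroblast's force machinery), 0 of 18 tested genes passed, 2 were above 0, 5 were lower at an unadjusted p under 0.05 and the median was -0.14. Over all tested genes 4.08% were lower and 4.35% higher at that p, which is the background for each list here. Vcl, which anchors actin at adhesions, stood at 274.5 ± 12.01 CPM against 343 ± 12.5 (-0.32, adjusted p = 0.191), and Tpm2, a tropomyosin gene, at 152.15 ± 17.1 against 193 ± 24.1 (-0.34, adjusted p = 0.191). In mitosis, 0 of 28 passed, 2 were above 0, 4 were lower at that p and the median was -0.12. Kif23 and Anln, which act in cytokinesis, had values of -0.39 and -0.38 (adjusted p = 0.261 and 0.266). For NF-kB inflammatory genes, 0 of 23 passed, 1 was higher and 6 were lower at that p and the median was -0.09, with Ccl2, the gene of a monocyte chemokine, at -0.72 (adjusted p = 0.187) and Csf1, the macrophage growth factor gene, at -0.41 (adjusted p = 0.199). Ccl2 was lower still in the other hybrids, at 5.06 to 6.51 CPM in BMP2ADV20a and 2.51 to 4.59 in BMP2ADV590, against 10.8 to 20.6 in BMP2ADV148b. Among immediate early genes, 0 of 22 passed, 4 were lower at that p and the median was -0.09, with Egr2 at -0.86 (adjusted p = 0.143) and Klf6 at -0.39 (adjusted p = 0.212). For p53 response and Gadd45 genes, Gadd45b was the 1 call of 24, 8 were lower and 1 was higher at that p, and Gadd45g had -0.37 (adjusted p = 0.143).

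**Figure D3:**
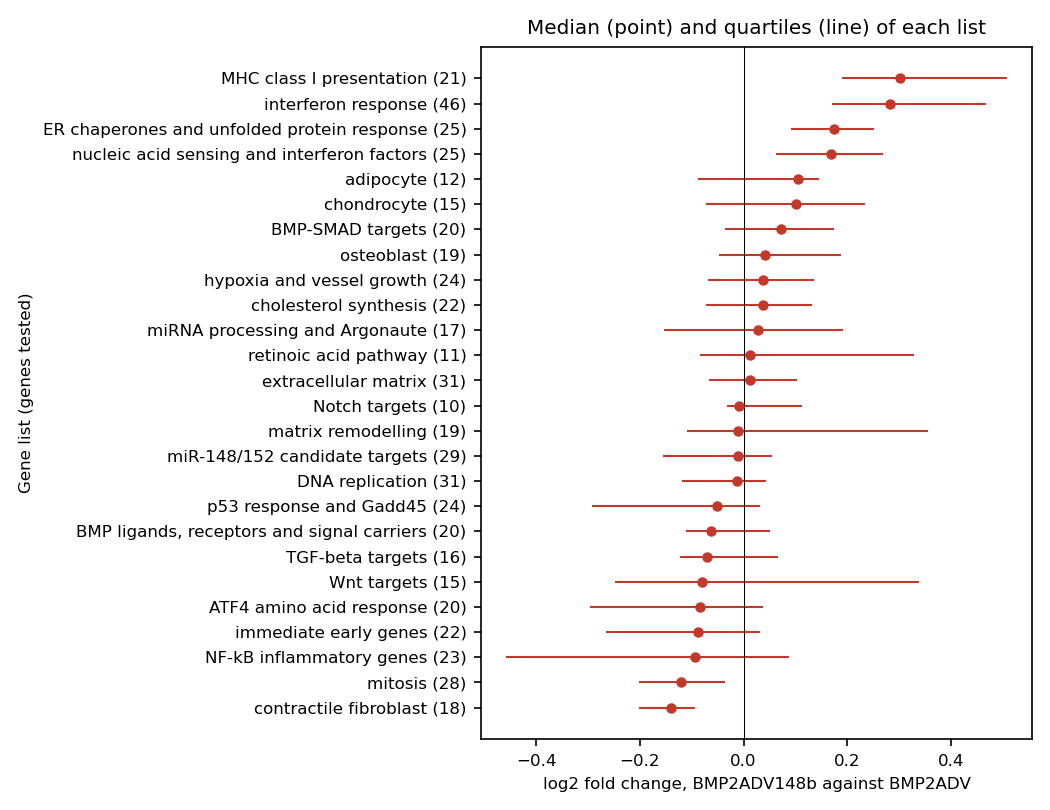
The point is the median log2 fold change of BMP2ADV148b against BMP2ADV over the tested genes of a list, whose number is in brackets, and the line joins the quartiles. The MHC class I (0.30) and interferon (0.28) lists are at the top and the contractile (-0.14) and mitosis (-0.12) lists at the bottom, where the median of all tested genes is -0.00. The lists were chosen with earlier results of these data known.

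Genes that mark the fates open to these cells differed little. Of 19 tested osteoblast genes 0 were called by edgeR, DESeq2 or limma-voom, with 3 higher and 2 lower at an unadjusted p under 0.05 and a median of 0.04. Over all tested genes 4.35% were higher and 4.08% lower at that p, which is the background for each list here. Spp1, the bone matrix gene osteopontin, stood at -0.41 (adjusted p = 0.337) and Dlx5, a bone transcription factor gene, at 0.30 (adjusted p = 0.471). Of 15 chondrocyte genes 0 were called by these tools, with 1 higher at that p and a median of 0.10. Col9a3, a cartilage collagen gene, stood at -0.45 (adjusted p = 0.723), and Sox9, the master regulator of cartilage, stood at 2070 ± 347 CPM against 1727 ± 210 (0.26, adjusted p = 0.448). Of 12 adipocyte genes Agpat2 was called higher, beside 0.212% of all tested genes, and 2 were higher and 0 lower at that unadjusted p. The median was 0.10, with Fasn, the fatty acid synthase gene, at 0.26 (adjusted p = 0.31). Of 20 direct targets of BMP and SMAD 0 were called by edgeR or limma-voom and 1 was higher by DESeq2, with 3 higher and 0 lower at an unadjusted p under 0.05 and a median of 0.07. Hey1, which BMP and Notch both induce, stood at 112 ± 13.4 CPM against 84.9 ± 9.24 (0.40, adjusted p = 0.102). Of 20 BMP ligands, receptors and signal carriers Bmp2 was called, and the receptor gene Bmpr1a stood at -0.30 (adjusted p = 0.391). Against BMP2ADV590, 8 of the 15 chondrocyte genes and 3 of the 20 BMP and SMAD targets were lower, with medians of -0.82 and -0.18, beside 2.46% of all tested genes.

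Across the other lists few genes passed. For ATF4 amino acid response (20 tested), DNA replication (31), extracellular matrix (31), Notch targets (10), TGF-beta targets (16) and cholesterol synthesis (22), 0 were called by edgeR or limma-voom, with medians of -0.08, -0.01, 0.01, -0.01, -0.07 and 0.04. By DESeq2 1 Notch target was higher and 0 of the others were called. At an unadjusted p under 0.05 there were 0, 0, 2, 1, 1 and 5 higher and 5, 0, 3, 1, 0 and 0 lower. Over all tested genes 4.35% were higher and 4.08% lower at that p. The 5 lower of 20 ATF4 genes and the 5 higher of 22 cholesterol genes were above those shares, whereas DNA replication held 0 of 31. Among the genes of smallest p in these lists were Chac1 (-0.49) and Atf3 (-0.63), Pola1 (-0.25) and Tyms (-0.18), Fbn2 (0.37) and Col12a1 (-0.30), Hey1 and Jag1 (-0.24), Tgif1 (0.24) and Skil (-0.23), and Fdft1 (0.34), with adjusted p from 0.102 to 0.611. Matrix remodelling (19 tested) held Mmp11 as its 1 call beside Mmp2 at 0.33 (adjusted p = 0.185). Hypoxia and vessel growth (24 tested) held Vegfa, beside Angpt1 at 0.34 (adjusted p = 0.407). Dhrs3, which limits retinoic acid, had 0.32 (adjusted p = 0.401), and Dkk3, of the Wnt list, had 2.60 at only 1.98 ± 0.323 CPM against 0.304 ± 0.185 (adjusted p = 0.127).

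Genes with a match to the miR-148b seed were then compared with the rest. Of the tested genes, 11591 have an annotated 3′ UTR (GENCODE M21, longest per gene), of which 1973 (17.0%) hold the 7-mer and 550 (4.75%) the 8-mer. The median log2 fold change was 0.00 for the 9618 genes with no 7-mer, -0.03 with the 7-mer and -0.07 with the 8-mer, and 63.8% of the 8-mer genes were below 0, against 49.6% of those with no match. At an unadjusted p under 0.05, 53 of the 550 8-mer genes were lower (9.64%) and 9 higher (1.64%), where all genes with a UTR gave 4.37% and 4.31%. For BMP2ADV20a against BMP2ADV, which shares the BMP2ADV libraries, 44 of the 550 were lower (8%) and 16 higher (2.91%), with 4 called lower and 0 higher, so a high count of lower genes was not limited to BMP2ADV148b. The shift is small and spread over many genes: of the 8-mer genes 0 were called lower and 2, Sp100 and Hspa5, were called higher, beside 0.267% of genes with a UTR called in either direction. By DESeq2 2 of them were higher and 5 lower, and by limma-voom 2 and 0. Site genes have longer UTRs, with a median of 2617 bases against 1210. With the genes split into 3 equal parts by UTR length, the 8-mer median was -0.11, -0.06 and -0.06 from the shortest part (62 8-mer genes) to the longest (336), beside 0.01, 0.00 and -0.00 with no match.

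**Figure D4:**
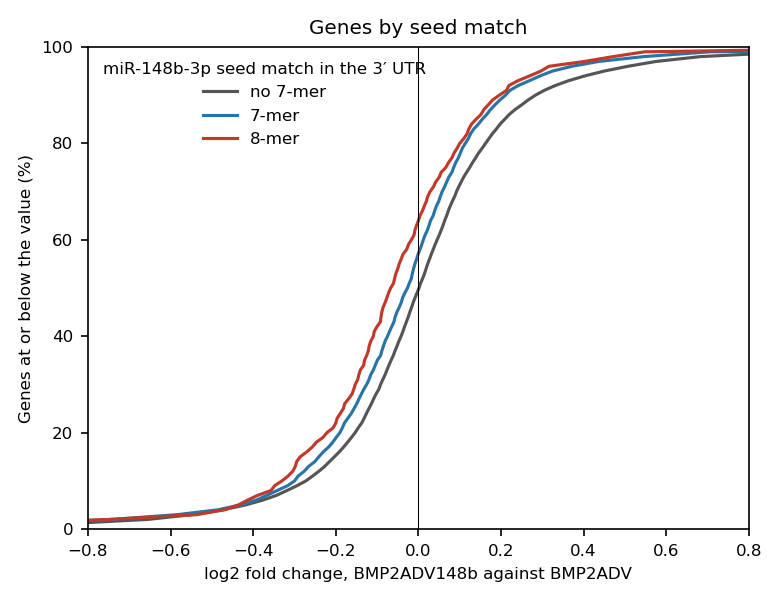
The horizontal axis is the log2 fold change of BMP2ADV148b against BMP2ADV and the vertical axis the percentage of genes at or below that value, for genes whose 3′ UTR holds no 7-mer, the 7-mer or the 8-mer. The curves of the 7-mer (median -0.03) and 8-mer genes (median -0.07) lie to the left of the curve with no match (0.00) over most of its length.

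The same measure was taken in every library, as the median of the 8-mer genes minus that of genes with no match, after each gene was set against its mean in BMP2ADV. It was -0.0787, -0.0557 and -0.0637 in the BMP2ADV148b libraries. In the other 9 it ran from -0.0184 (BMP2ADV590 replicate 1) to 0.0172 (BMP2ADV replicate 3), so the groups were separate by more than the spread within any of them. For the 7-mer, whose genes include those with the 8-mer, it was -0.0403, -0.0241 and -0.0274 in BMP2ADV148b. In the other 9 the 7-mer value ran from -0.018 (BMP2ADV590 replicate 1) to 0.00591 (BMP2ADV replicate 3). That gap was narrower than the spread within BMP2ADV148b. The 8-mer median was -0.04 for BMP2ADV148b against BMP2ADV20a and -0.05 against BMP2ADV590. For BMP2ADV20a against BMP2ADV it was -0.01 and for BMP2ADV590 against BMP2ADV -0.00. These comparisons share libraries, and no p-value is attached to the classes, since genes are not replicates.

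**Figure D5:**
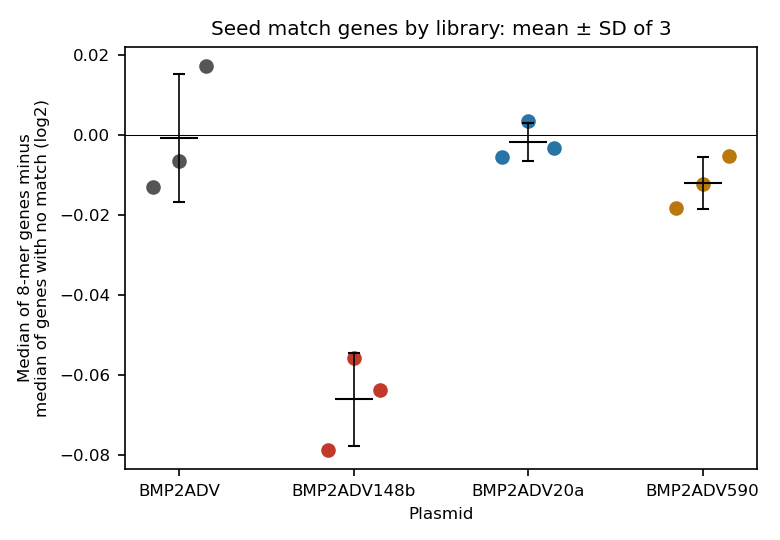
Each point is a library, placed by plasmid, and the vertical axis is the median log2 level of 8-mer genes minus that of genes with no 7-mer, each gene relative to its BMP2ADV mean; the bar is the mean ± SD of 3 libraries. The BMP2ADV148b libraries lie between -0.0787 and -0.0557 and the other 9 between -0.0184 and 0.0172.

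Example sites are printed from GENCODE M21 on GRCm38, 5′ to 3′ along the messenger, with the match in capitals. The first 5 are of 8-mer genes described below, chosen after their values were seen, and other 8-mer genes such as Gadd45a (-0.61), Epn2 (-0.46) and Ajuba (-0.44) had values as low. The last 4 are the called genes that rose and hold a match.
Map3k14, chr11:103220514-103220521, minus strand: cactagaaTGCACTGAgccttc
Nptn, chr9:58652567-58652574, plus strand: aaatctttTGCACTGAtgtgtc
Lgalsl, chr11:20825986-20825993, minus strand: atcaaatcTGCACTGAcgtgga
Mgat5, chr1:127486358-127486365, plus strand: agttgggtTGCACTGAagctat
Pofut1, chr2:153266713-153266720, plus strand: tggcagggTGCACTGAaagctg
Hspa5, chr2:34776115-34776122, plus strand: gTGCACTGAtctgct
Sp100, chr1:85695132-85695139, plus strand: acactctgTGCACTGAcaagtc
H2-K1, chr17:33996293-33996299, minus strand: cctgtcccTGCACTGctctgt
H2-D1, chr17:35267042-35267048, plus strand: cctatcccTGCACTGccctgt
The coordinates are those of the match itself. In Hspa5 it begins at base 2 of the 3′ UTR, and H2-K1 and H2-D1 hold only the 7-mer. A match is a description of the letters and does not show that the site is used.

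Nptn (ENSMUSG00000032336, chromosome 9), which encodes the adhesion protein neuroplastin, had values within a narrow range in BMP2ADV148b. It stood at 312, 291 and 286 CPM in BMP2ADV, 241, 240.1 and 239 in BMP2ADV148b, 319.5, 306 and 277 in BMP2ADV20a and 302, 315 and 318 in BMP2ADV590. The BMP2ADV148b libraries were below all 9 others, though against BMP2ADV the value of -0.30 did not pass (SE 0.0746, adjusted p = 0.108). Directly against the other hybrids Nptn fell by 0.33 (BMP2ADV20a, adjusted p = 0.0389) and by 0.38 (BMP2ADV590, adjusted p = 0.0028). Map3k14, the NF-kB inducing kinase gene, stood at 17.6, 20.1 and 23.5 CPM in BMP2ADV and 13.7, 12.2 and 9.88 in BMP2ADV148b (-0.77, SE 0.171, adjusted p = 0.0563). Its means in the other hybrids were 13.7 and 11.6 CPM, close to its level in BMP2ADV148b. Lgalsl, a galectin-like gene, stood at 69.0, 63.2 and 68.1 CPM against 48.7, 46.2 and 57.5 (-0.39, adjusted p = 0.126). It was not called against BMP2ADV20a, whose mean was 65.1 CPM. Against BMP2ADV590, where 2.46% of all tested genes were called lower, it fell by 0.76 (adjusted p = 3.3e-05). The mean of BMP2ADV590, 86.2 CPM, was itself above that of BMP2ADV.

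Of the 550 8-mer genes, 19 (3.45%) had all 3 BMP2ADV148b libraries below the other 9, beside 0.82% of all genes with a UTR, and 5 (0.909%) had them above, beside 1.22%. Of the 9618 genes with no match, 59 (0.613%) were below and 125 (1.30%) above. Besides Nptn, Lgalsl, Mgat5 and Pofut1 the 19 include Twf1, which caps actin filaments, Tpp1, a lysosomal peptidase gene, Prkaa1, a catalytic subunit of AMP kinase, Ywhab, a 14-3-3 protein gene, and Qk, an RNA-binding protein gene. Against BMP2ADV, Twf1, Tpp1, Prkaa1, Ywhab and Qk had -0.28, -0.18, -0.16, -0.12 and -0.16. None of them passed that test (edgeR adjusted p from 0.3265 to 0.693). Of the 7 genes called lower than in BMP2ADV20a (0.0529% of all tested), 3 hold the 8-mer, Nptn, Pofut1 and Tpm2, and Pdia3 holds the 7-mer alone. Pofut1, the enzyme gene that puts fucose on Notch, stood at 31.3 ± 3.44 CPM there against 45.0 ± 3.29 (-0.52, adjusted p = 0.0253). Against BMP2ADV it had -0.35 and did not pass (adjusted p = 0.317). Mgat5, which encodes an enzyme that branches glycans and holds 2 copies of the 8-mer, stood at 29.0 ± 1.55 CPM in BMP2ADV148b, 36.1 ± 1.30 in BMP2ADV, 39.3 ± 1.67 in BMP2ADV20a and 38.0 ± 1.83 in BMP2ADV590. It fell by 0.39 against BMP2ADV590 (adjusted p = 0.0364) and was not called against BMP2ADV20a. Its value of -0.31 against BMP2ADV did not pass (adjusted p = 0.351).

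Of the 6 most abundant 8-mer genes, Hspa5 rose and the other 5 did not pass the test. Serbp1, an RNA-binding protein gene, had -0.10, Flna, the actin cross-linker filamin A, -0.12, Nfix, a transcription factor gene, -0.00, Col2a1, the main collagen of cartilage, 0.01 and Nuak1, a kinase gene, 0.10, with adjusted p from 0.741 to 0.999.

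Of 34 candidate targets of the miR-148 and miR-152 family taken from general knowledge, 29 were tested and 0 were called by edgeR, DESeq2 or limma-voom. The median was -0.01, and 14 were above 0. At an unadjusted p under 0.05, 3 were lower and 0 higher, where all tested genes gave 4.08% and 4.35%. Csf1 stood at 131, 147 and 137 CPM in BMP2ADV and 111, 110 and 89.7 in BMP2ADV148b (-0.41, SE 0.118, adjusted p = 0.199). Rock1, a kinase gene of the actin skeleton, had -0.28, Txnip, which binds thioredoxin, -0.30 and Nras, a RAS gene, -0.17 (adjusted p = 0.247, 0.457 and 0.619). Csf1 and Nras hold the 8-mer, and Rock1 and Txnip the 7-mer. Csf1 was lower in the other hybrids too, at 90.4 to 96.1 CPM in BMP2ADV20a and 49.8 to 78.1 in BMP2ADV590. Dnmt1, the maintenance DNA methyltransferase and a familiar family target, had -0.20 (adjusted p = 0.705) and holds the 8-mer. It was picked by name.

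The machinery that microRNAs work through held 0 calls by the 3 tools among 17 tested genes, with a median of 0.03. At an unadjusted p under 0.05, 1 was higher and 3 were lower, where all tested genes gave 4.35% and 4.08%. The 3 lower were Ago2 (-0.17, unadjusted p = 0.0385), Ago3 (-0.30, 0.0127) and Tnrc6c (-0.23, 0.0442). Each of them holds the 8-mer, as do 4.75% of tested genes with a 3′ UTR. Sites in the other members of the list are not given here, and a part of the sites in these values was not tested. Ago2, the Argonaute that can cut its target, stood at 166, 183 and 169.7 CPM in BMP2ADV and 160.1, 157 and 144 in BMP2ADV148b, and Ago3 at 49.2, 50.2 and 44.6 CPM against 37.7, 39.0 and 40.5. The groups did not overlap for either gene, as was so for 7.37% of all tested genes on the lower side. For both genes the BMP2ADV590 libraries were about as low. Ago2, Tnrc6c, Drosha and Dicer1 are named after their values were seen. Mov10, an RNA helicase gene, was the 1 on the higher side, at 0.47 (adjusted p = 0.261). Drosha and Dicer1, which cut the hairpin, had 0.04 and 0.19 (adjusted p = 0.951 and 0.663).

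The promoters of the called genes were searched for GAAANNGAAA, the core of the element that interferon factors bind, on both strands from 250 bases before to 50 after the start (RefSeq, GRCm38.p6). Of 28 genes that rose, 23 had a promoter in the table and 4 held the motif (17.4%), and of the 5 that fell 1 held it. Among genes with a promoter of the same length, 3.79% of tested genes and 3.99% of all genes held it. Over the listed genes with a promoter found, it was 21 of 33 (63.6%) in the interferon list and 5 of 19 (26.3%) in the MHC class I list. The first copies are shown, with the motif in capitals, since these are the called genes that hold it.
Ifit3b: aaagtaGAAACTGAAAcagact
Rsad2: ttttctGAAAATGAAAgttgga
Phf11b: tttagaGAAAAAGAAActagaa
Cxcl10: gctttgGAAAGTGAAActtacc
Vegfa: taccgcGAAATGGAAAgctaaa
The 4 genes that rose are interferon genes described above, and Vegfa fell. No match in this window says only that these letters are not there.

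Across all plasmids, the 33 called genes differ in where the other hybrids stand. Mir148b, Apod, Ifit3b, Ifi47, Rsad2, Psmb8, Sp100, Phf11b, Cxcl10 and Psmb10 were higher than in both BMP2ADV20a and BMP2ADV590 by the direct test, with differences from 0.48 to 2.10 apart from Mir148b. Ly6e, Ftl1, H2-K1 and H2-D1 were higher than in BMP2ADV590 and did not pass against BMP2ADV20a, where Ly6e had 0.36 (adjusted p = 0.147). Mmp11 was lower than in BMP2ADV590. The other 18 passed neither direct test, among them Cyp26b1, Bmp2, Hspa5, Grn, Psap, Vegfa and Gadd45b. For Cyp26b1 the direct difference from BMP2ADV590 was -0.00 (adjusted p = 0.997), and for Gadd45b those from BMP2ADV20a and BMP2ADV590 were 0.15 and 0.16 (adjusted p = 0.764 and 0.405). A miss in the direct test does not show that the groups are alike. Over all tested genes, BMP2ADV148b differed in 74 (0.559%) from BMP2ADV20a and in 586 (4.43%) from BMP2ADV590.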

How the data were processed

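RNA libraries were made from 100 ng of RNA with the QuantSeq 3′ kit, which reads the 3′ ends of polyadenylated transcripts, per the labels' protocols. The authors deposited whole-number read counts per gene, and the submitters' processing notes name FastQC 0.11.5, STAR 2.5.2a, HTSeq 0.6.0, DESeq2 and GRCm38. The sources used here do not say whether counting used strand. Lines that name no gene, 52.2% to 54.4% of a library's total, were left out. Counts of all 12 libraries entered one edgeR 4.0.16 quasi-likelihood fit (R 4.3.3, TMM factors, filterByExpr, one mean per group), with Benjamini-Hochberg adjustment at 0.05 over 13229 genes. CPM use TMM-scaled totals. The fit was tested on simulated data. Alternatives were RLE factors, no filter, DESeq2 1.42.0, limma-voom 3.58.1, only the groups compared, a replicate block and leaving out each library. Depth limits rare genes, and intervals cover the spread between libraries only. Named are all called genes with an established symbol, the locus genes, up to 2 members of smallest p per list, 4 candidate targets and the 6 most abundant 8-mer genes. Members and lists were chosen with earlier results of these data known.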

Additional observations from a re-analysis of the deposited data

How the results depend on the processing

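The 33 calls (28 higher, 5 lower) stayed 33 with RLE factors. Without the filter on low counts there were 126 (79 higher, 47 lower), 137 against BMP2ADV20a and 17 interferon genes. DESeq2 gave 82 (57 higher, 25 lower; 8 interferon genes), limma-voom 24 (2 MHC class I genes), and the fit of only the 2 groups 45, of which 8 were lower and 8 were interferon genes. Leaving out 1 library gave 3 to 60 calls, 3 to 43 higher, 0 to 17 lower, 22 to 93 against BMP2ADV20a, 241 to 656 against BMP2ADV590, 1 to 8 interferon and 0 to 5 MHC class I genes. The 8-mer median relative to genes with no match was -0.07, -0.0533 without the filter, -0.0811 with sites sought only in the last 500 bases of the UTR and -0.0734 to -0.0591 without 1 library. For the 7-mer it was -0.03, -0.016 without the filter, -0.0177 in the last 500 bases and -0.0436 to -0.0288 without 1 library. The split by UTR length was added after the data were seen. With the replicate number as a block there were 14 calls, 14 higher and 0 lower, with 2 MHC class I genes. To look for pairing by number, the log2 CPM of each gene were taken as deviations from the group mean. Between BMP2ADV148b and BMP2ADV, these deviations had correlations of -0.0717, -0.061 and -0.113 for same-numbered libraries. No sign of pairing was seen there, which does not show that the samples are unpaired. Values near 0 changed sign for 3 uncalled genes. Without 1 library Copz2 ranged from -0.19 to 0.0589, Col2a1 from -0.0651 to 0.116 and Nfix from -0.059 to 0.0812. Nfix was 0.0017 with RLE factors, 0.001001 without the filter, 0.00166 with DESeq2, and 0.000806 with the 2 groups alone. The cause was not tested.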
